A study of Oryctolagus cuniculus with 4 samples.

Results

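Wnt pathway genes were examined in rabbit ear hypertrophic scar (HS), with and without drug-loaded microneedles (MNs). They were the rows of the expression table whose gene symbol names a Wnt ligand, a receptor, a secreted antagonist or a signal relay protein, and 50 of the 13913 genes of the table were members. The 3706 genes listed without a symbol could not match. The members are therefore not the full pathway, and APC and LRP5 are among the genes not found. The rule reads symbols and no measured value, though it was written with earlier results of these data known. The rule also took CTNNBL1, a protein linked to mRNA splicing, and APCS, a serum protein, which share letters with pathway genes but have other roles.

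Wild-type female rabbits, 10 to 12 weeks old when obtained, carried scars that had formed after wounding of the ventral ear surface. The HS group received no treatment. In the drug-loaded MNs group, patches whose separating tips carry a prodrug of a 5-fluorouracil derivative were applied weekly for 3 weeks, and tissue was taken on day 43, a week after the last patch. Ventral epidermis and dermis were dissociated for single-cell RNA sequencing with 10x Genomics chemistry, and 2 scars per group gave 1 library each. The scars of a group are described as biologically independent, but each rabbit bore several scars and whether they came from different rabbits was not stated, so the p-values measure the spread between scars only. Drug-free patches were not analysed here, so patch and drug cannot be told apart.

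In Wnt signalling, secreted lipid-modified WNT proteins bind Frizzled (FZD) receptors and, for the branch that stabilises beta-catenin, the co-receptors LRP5 and LRP6. Without a ligand, a complex built on AXIN and APC lets GSK3 mark beta-catenin for destruction, and with a ligand beta-catenin reaches the nucleus and acts through TCF and LEF factors. In skin the pathway is known for hair follicle formation, the upkeep of epidermal stem cells and fibroblast activation in fibrosis.

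Values are given as parts per 1000000 of a library, called units, and each is 1 value per gene and library with no values per cell. In such summed material, fewer cells of a type and less RNA per cell cannot be told apart. The depth of the libraries was unknown. In each library 48 of the 50 members had a value above 0, and the members together took 1368 and 1509 units in HS and 1848 and 1616 units in drug-loaded MNs. A mean of at least 1 unit over the 4 libraries was required for testing, which 41 members met. The other 9 (WNT1, WNT2B, WNT8A, WNT8B, WNT10B, RSPO2, RSPO4, LGR6 and APCS) did not exceed 1.20 units in any library, and APCS was listed at 0 throughout. Log2 fold changes compare drug-loaded MNs with HS on the log2(value + 1) scale and come from a limma fit over all 9348 genes tested.

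No member passed an adjusted p of 0.05 in limma, and 0.0428% of all genes tested did so (4 genes). At an unadjusted p under 0.05, 3 members were higher in drug-loaded MNs (7.32% of the 41, against 7.26% of all genes) and 2 were lower (4.88%, against 1.39%). The 3 were the antagonists SFRP2, DKK2 and SFRP5, and the 2 were the ligands WNT11 and WNT5B. The groups were free of overlap in 10 members that were higher (24.4%, against 26.6% of all genes) and in 6 that were lower (14.6%, against 11.2%). The median log2 fold change of the tested members was 0.14 and that of all genes 0.12. Of the 41 members, 24 had higher and 17 lower values in drug-loaded MNs.

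**Figure D1:**
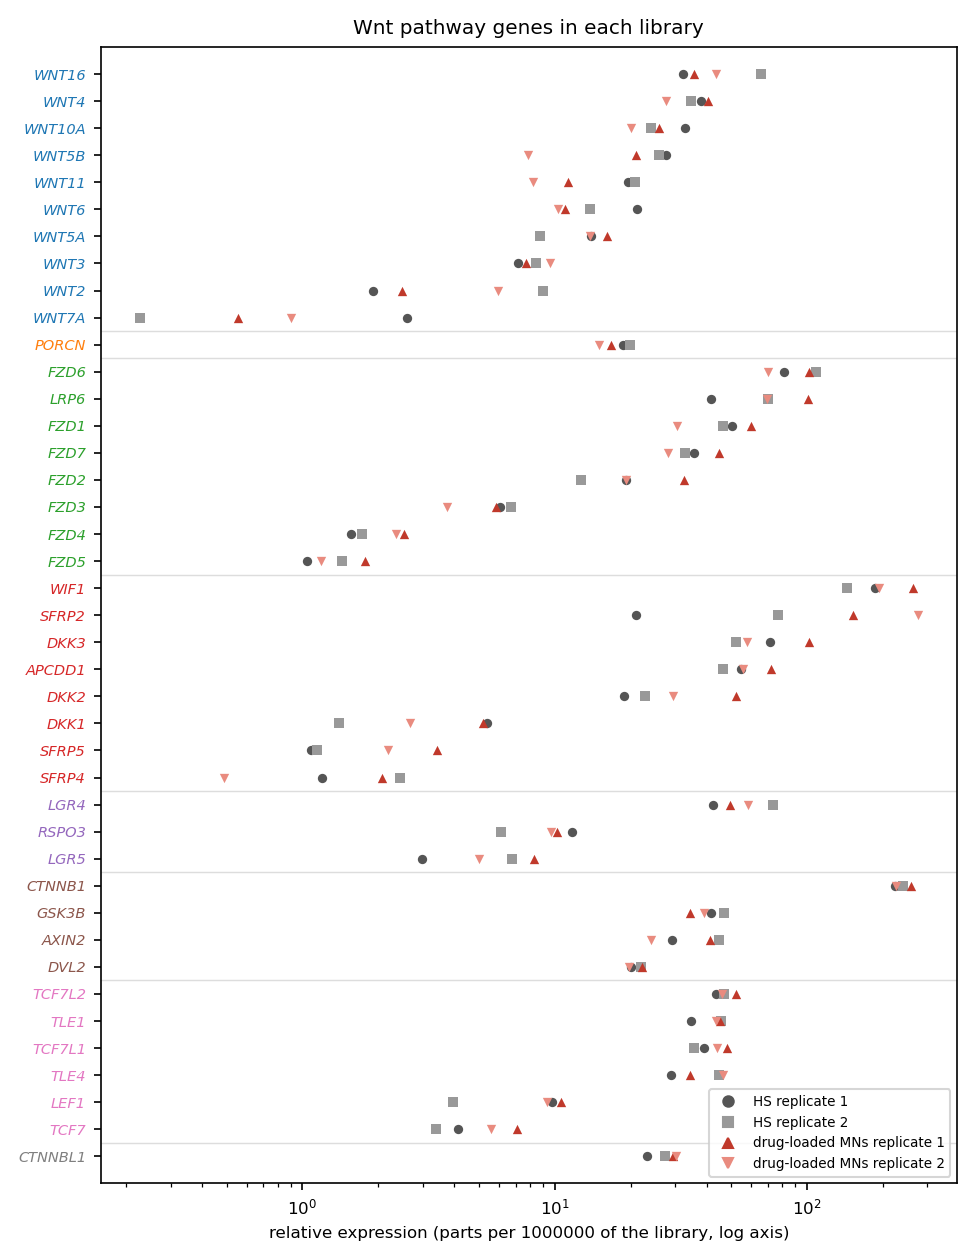
Relative expression of the 41 tested members (log axis, parts per 1000000 of the library) in each of the 4 libraries. From top to bottom the blocks hold ligands, PORCN, receptors, antagonists, R-spondin and LGR genes, relay proteins, nuclear factors and CTNNBL1. SFRP2 ran from 20.9 to 276 units, and CTNNB1 stayed between 223 and 260 units.

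Among the WNT ligands, 8 of the 10 that met the limit for testing were lower in drug-loaded MNs and 2 were higher, with a median log2 fold change of -0.25. One of the 8, WNT7A, met it through HS replicate 1 alone, and with that library left out 7 of 9 were lower. With HS replicate 2 left out 6 of 10 were lower. The ligands at an unadjusted p under 0.05 were WNT11 and WNT5B, both known mainly for signalling that does not need beta-catenin. WNT11 stood at 19.5 and 20.8 units in HS and at 11.3 and 8.17 units in drug-loaded MNs. Both HS libraries were close together and above both drug-loaded MNs libraries. On the log2 scale the fold change was -0.99 (adjusted p 0.352 in limma, SE 0.28), with a 95% interval from -1.64 to -0.35. Counted from the lowest log2 fold change, WNT11 was number 60 of the 9348 genes.

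WNT5B stood at 27.6 and 25.8 units in HS and at 21.1 and 7.87 units in drug-loaded MNs. The groups did not overlap, but drug-loaded MNs replicate 2 lay far below replicate 1. The log2 fold change was -0.99 (adjusted p 0.574 in limma, SE 0.42), and it was -0.33 with that library left out and -1.64 with the other treated library left out. WNT5A, the close relative of WNT5B and a ligand of dermal fibroblasts, did not follow it. It stood at 13.9 and 8.75 units in HS and at 16.1 and 13.8 units in drug-loaded MNs, with overlapping groups and a log2 fold change of 0.40 (adjusted p 0.802 in limma).

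WNT6, a ligand of epithelia, stood at 21.1 and 13.8 units in HS and at 11.0 and 10.3 units in drug-loaded MNs. Both treated libraries lay below both HS libraries, and the HS libraries differed from each other by a factor of 1.53. On the log2 scale the fold change was -0.64 (adjusted p 0.623 in limma, SE 0.29). WNT10A, whose loss disturbs teeth, hair and sweat glands, is the gene next to WNT6 in the rabbit annotation. It had 32.8 and 24.2 units in HS and 26.0 and 20.01 units in drug-loaded MNs. The HS library with more WNT6 also had more WNT10A, and for WNT10A the groups overlapped (log2 fold change -0.29, adjusted p 0.840 in limma). The 5 ligands under the limit for testing went both ways at very low values. WNT1 was at 0.452 and 0.458 units in HS against 0.265 and 0.260 units with drug-loaded MNs, and its neighbour WNT10B at 0.359 and 0.197 units against 0.122 and 0.173 units. WNT8A was at 0.123 and 0.244 units in HS against 0.350 and 0.324 units with drug-loaded MNs, WNT8B at 0.0713 and 0.0287 units against 0.126 and 0.126 units, and WNT2B at 0.0739 and 0 units against 0.137 and 0.410 units. None of the 5 overlapped between the groups, with the first pair higher in HS and the other 3 higher in drug-loaded MNs. The shares over all genes cover tested genes only, so no share stands beside this count. At values this low the separation is not read as a result.

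WNT16, a ligand of skin and bone, stood at 32.3 and 65.7 units in HS and 35.5 and 43.8 units in drug-loaded MNs. Both treated libraries lay between the HS libraries (log2 fold change -0.22, 95% interval -1.04 to 0.60, adjusted p 0.911 in limma). WNT4, a ligand of epidermis and dermis, had 37.9 and 34.6 units in HS and 40.4 and 27.7 units in drug-loaded MNs, with a log2 fold change of -0.11 (adjusted p 0.943 in limma). The other 3 tested ligands (WNT2, WNT3 and WNT7A) had overlapping groups and log2 fold changes from -0.29 to 0.14. WNT7A had 2.59 units in HS replicate 1 and between 0.226 and 0.899 units in the other libraries.

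PORCN, the enzyme that attaches the lipid that WNT proteins need for secretion, stood at 18.7 and 19.8 units in HS and at 16.6 and 14.95 units in drug-loaded MNs. Its groups did not overlap either, but the difference was small (log2 fold change -0.27, 95% interval -0.85 to 0.31, adjusted p 0.840 in limma). WLS, which carries WNT proteins to the cell surface, had 69.1 and 53.5 units in HS and 61.3 and 51.0 units in drug-loaded MNs, with overlapping groups.

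The receptors showed no common direction: 5 of 8 were higher and 3 lower, with a median log2 fold change of 0.097. FZD2 stood at 19.1 and 12.7 units in HS and at 32.6 and 19.1 units in drug-loaded MNs. The groups barely missed overlapping, since HS replicate 1 (19.09) and drug-loaded MNs replicate 2 (19.11) almost met. The log2 fold change was 0.65 (adjusted p 0.700 in limma, SE 0.34). LRP6, the co-receptor of the beta-catenin branch, stood at 41.6 and 69.9 units in HS and at 101 and 69.7 units in drug-loaded MNs. HS replicate 2 and drug-loaded MNs replicate 2 had the same level, and the log2 fold change of 0.63 (adjusted p 0.685 in limma, SE 0.32) came down to 0.26 when HS replicate 1 was left out and up to 0.99 when HS replicate 2 was.

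FZD6, which orients hair follicles in the skin plane, stood at 80.9 and 109 units in HS and at 102 and 69.9 units in drug-loaded MNs (log2 fold change -0.15, 95% interval -0.79 to 0.50, adjusted p 0.924 in limma). FZD1 stood at 50.6 and 46.5 units in HS and at 60.2 and 30.7 units in drug-loaded MNs, so that both HS libraries fell between the treated ones (log2 fold change -0.17, adjusted p 0.930 in limma). The other 4 receptors (FZD3, FZD4, FZD5 and FZD7) had log2 fold changes from -0.37 in FZD3 to 0.38 in FZD4. In all 8 receptors drug-loaded MNs replicate 1 was the higher of the treated libraries.

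Most of the genes grouped here as antagonists hold WNT ligands or LRP co-receptors in the extracellular space or at the membrane. The grouping goes by gene family, and the action of each protein was not measured. Of 8 tested antagonists, 7 were higher in drug-loaded MNs, 5 of them with groups free of overlap, and the median log2 fold change was 0.39. Over all genes 6043 of 9348 were higher, and 26.6% were higher without overlap. All 7 also lay above the median of all genes. The number above that median was 5 of 8 when HS replicate 2 was left out, and also 5 of 8 when drug-loaded MNs replicate 1 was.

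SFRP2, a secreted protein with a Frizzled-like domain that is known from dermal fibroblasts, had the largest difference of all tested members. It stood at 20.9 and 76.9 units in HS and at 153 and 276 units in drug-loaded MNs. Both treated libraries lay above both HS libraries, and the HS libraries differed from each other by a factor of 3.68. The group means were 48.9 ± 39.6 and 214 ± 87.2 units (SD, n = 2 each), a ratio of 4.38. On the log2 scale the fold change was 2.32 (adjusted p 0.316 in limma, SE 0.56), with a 95% interval from 1.003 to 3.64. Counted from the highest log2 fold change SFRP2 was number 13 of the 9348 genes, and by unadjusted p (0.00392) number 114. Whether it passed the threshold turned on the libraries used. With drug-loaded MNs replicate 1 left out the log2 fold change was 2.74 (adjusted p 7.1e-05 in limma), and with replicate 2 of that group left out it was 1.89 (adjusted p 0.0281 in limma). These fits had 1 residual degree of freedom and leaned on prior degrees of freedom of 60.4 and 53.1, against 5.44 with all libraries. With HS replicate 1 left out it was 1.40 and with HS replicate 2 left out 3.23, and neither passed (adjusted p 0.450 and 0.186 in limma).

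DKK2, which binds the LRP co-receptors, stood at 18.9 and 22.7 units in HS and at 52.5 and 29.5 units in drug-loaded MNs. The HS libraries were close to each other and below both treated libraries, of which replicate 1 was much the higher. The log2 fold change was 0.89 (adjusted p 0.467 in limma, SE 0.32), and it was 0.49 without drug-loaded MNs replicate 1. SFRP5, a relative of SFRP2, was low in every library, with 1.08 and 1.14 units in HS and 3.42 and 2.19 units in drug-loaded MNs. Its log2 fold change was 0.83 (adjusted p 0.505 in limma, SE 0.32).

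WIF1, which binds WNT ligands directly, stood at 186 and 145 units in HS and at 264 and 194 units in drug-loaded MNs, and HS replicate 1 and drug-loaded MNs replicate 2 lay close together without crossing. On the log2 scale the fold change was 0.46 (adjusted p 0.710 in limma, SE 0.25). APCDD1, a membrane protein that blocks WNT signals in hair follicles, had 54.6 and 46.3 units in HS and 72.1 and 55.7 units in drug-loaded MNs. Its log2 fold change was 0.33 (adjusted p 0.796 in limma, SE 0.24), again with groups that only just did not cross.

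DKK3, a divergent member of its family, had 71.2 and 52.6 units in HS and 102 and 57.9 units in drug-loaded MNs, with overlapping groups (log2 fold change 0.32, adjusted p 0.855 in limma). DKK1, the best known LRP-binding antagonist, had 5.39 and 1.39 units in HS and 5.21 and 2.68 units in drug-loaded MNs. Both treated libraries lay between the HS libraries, and the log2 fold change was 0.29 (adjusted p 0.918 in limma). SFRP4 was the antagonist with a lower value, at 1.20 and 2.43 units in HS and 2.06 and 0.486 units in drug-loaded MNs (log2 fold change -0.37, adjusted p 0.881 in limma).

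**Figure D2:**
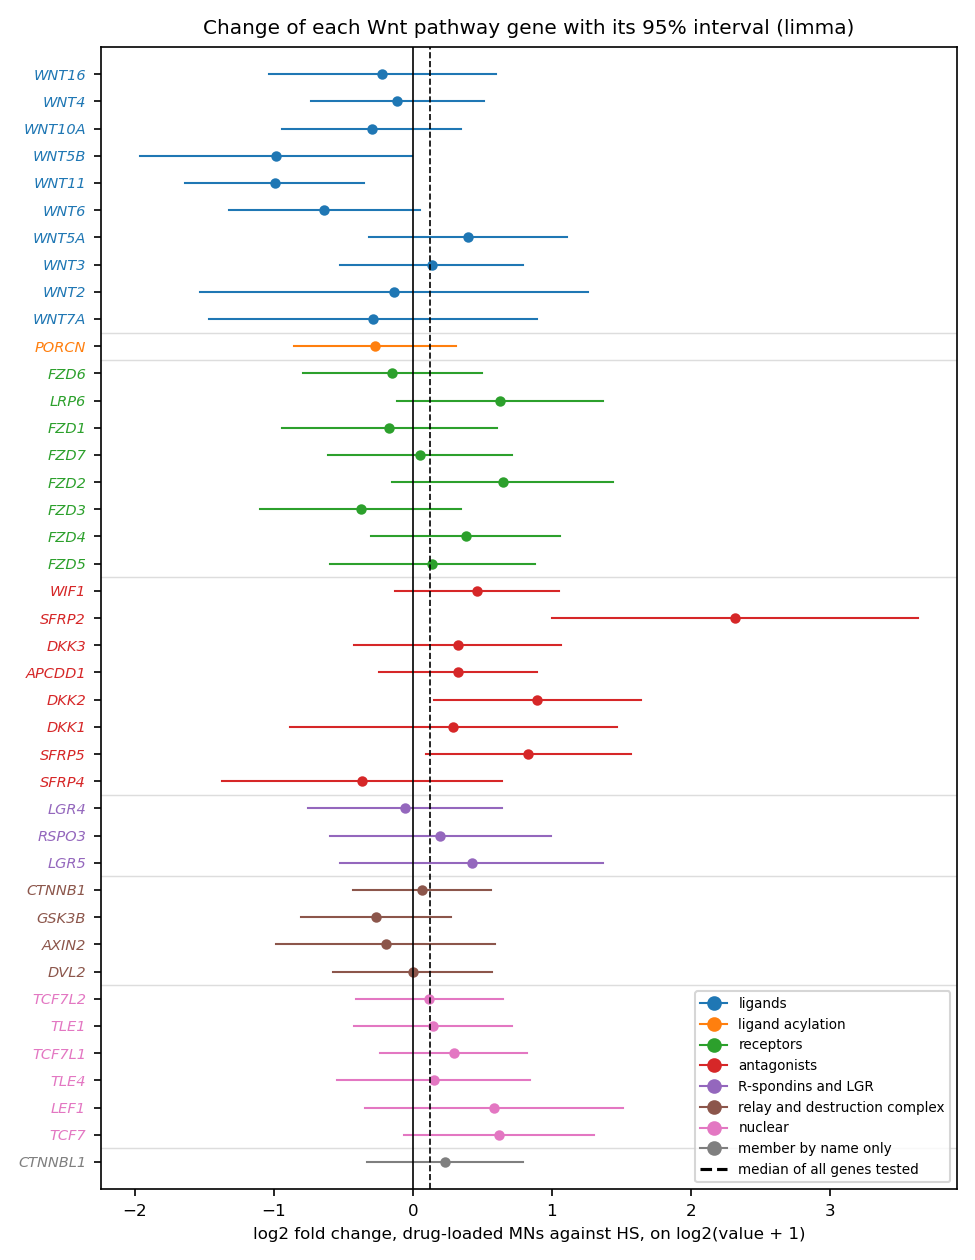
Log2 fold change of drug-loaded MNs against HS for each tested member, with its 95% interval from limma, in colours by role. The solid line marks 0 and the dashed line the median of all genes (0.12). The intervals of SFRP2, DKK2 and SFRP5 lie above 0 and those of WNT11 and WNT5B below it.

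R-spondins raise the cell's response to WNT by keeping FZD receptors at the surface, and LGR4, LGR5 and LGR6 are their receptors. LGR4 stood at 42.6 and 73.1 units in HS and at 49.7 and 58.1 units in drug-loaded MNs, with both treated libraries between the HS libraries (log2 fold change -0.054, 95% interval -0.75 to 0.65, adjusted p 0.977 in limma). LGR5, a marker of hair follicle stem cells and itself a WNT target, had 2.98 and 6.78 units in HS and 8.26 and 5.01 units in drug-loaded MNs. Its groups overlapped, with a log2 fold change of 0.42 (adjusted p 0.850 in limma). RSPO3 had a log2 fold change of 0.20 and overlapping groups.

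Of the 4 members in the relay and the destruction complex, 1 was higher and 3 were lower, with a median log2 fold change of -0.098. CTNNB1, which encodes beta-catenin and also serves cell junctions, stood at 223 and 239 units in HS and at 260 and 226 units in drug-loaded MNs. The groups overlapped, and the log2 fold change was 0.068 (adjusted p 0.960 in limma, SE 0.21), with a 95% interval from -0.43 to 0.56. GSK3B, the kinase that marks beta-catenin, had 41.8 and 47.0 units in HS and 34.5 and 39.1 units in drug-loaded MNs. Both treated libraries were lower, by a small amount (log2 fold change -0.26, adjusted p 0.836 in limma). AXIN2, a scaffold of the complex whose transcript is widely read as a sign of beta-catenin signalling, had 29.3 and 45.0 units in HS and 41.3 and 24.2 units in drug-loaded MNs. The libraries of the groups were interleaved, and the log2 fold change was -0.20 (95% interval -0.98 to 0.59, adjusted p 0.918 in limma). DVL2, the fourth member of this role, had overlapping groups.

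All 6 nuclear members had higher values in drug-loaded MNs (median log2 fold change 0.22), though TCF7L2 did not under median ratio scaling. With HS replicate 1 left out TLE1 (-0.048) and TLE4 (-0.16) were lower, and with drug-loaded MNs replicate 2 left out TLE4 (-0.064) was. TCF7, which encodes TCF1, stood at 4.14 and 3.38 units in HS and at 7.06 and 5.61 units in drug-loaded MNs. Both treated libraries were higher (log2 fold change 0.62, SE 0.29, adjusted p 0.633 in limma). LEF1, known from the hair matrix and the dermal papilla, had 9.76 and 3.95 units in HS and 10.6 and 9.33 units in drug-loaded MNs. HS replicate 2 was the low one, and the log2 fold change of 0.58 (adjusted p 0.769 in limma) was 0.025 without it. TCF7L1, a repressor in epidermal stem cells, had 38.9 and 35.8 units in HS and 48.1 and 44.0 units in drug-loaded MNs, with groups free of overlap (log2 fold change 0.30, adjusted p 0.800 in limma). TCF7L2 stood at 43.5 and 46.8 units in HS and at 52.2 and 46.3 units in drug-loaded MNs, with overlapping groups and a log2 fold change of 0.12 (adjusted p 0.924 in limma), which was -0.022 under median ratio scaling. The corepressors TLE1 and TLE4 had log2 fold changes of 0.14 and 0.15. CTNNBL1, a member by name only, had 23.3 and 27.4 units in HS and 29.5 and 30.1 units in drug-loaded MNs (log2 fold change 0.23, adjusted p 0.862 in limma).

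Summed within each library, the 15 ligands took 198 and 212 units in HS and 173 and 149 units in drug-loaded MNs. The 8 antagonists took 359 and 348 units in HS and 653 and 618 units in drug-loaded MNs. In both sums the groups did not overlap, in opposite directions. The ratio of the antagonist sum to the ligand sum, which no scaling of a library by 1 factor can alter, was 1.82 and 1.64 for HS against 3.78 and 4.14 for drug-loaded MNs. Without SFRP2 the antagonist sum was 338 and 271 units in HS against 501 and 342 units in drug-loaded MNs. HS replicate 1 and drug-loaded MNs replicate 2 then almost met. The ratio without SFRP2 was 1.71 and 1.28 for HS against 2.89 and 2.29 for drug-loaded MNs, still without overlap. The sums and the ratio were not among the planned results. The lack of overlap in the ratio follows from that in the sums and adds no further evidence. The sums of the receptors (236 and 280 units against 351 and 225) and of the relay genes (314 and 353 units against 358 and 310) overlapped.

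**Figure D3:**
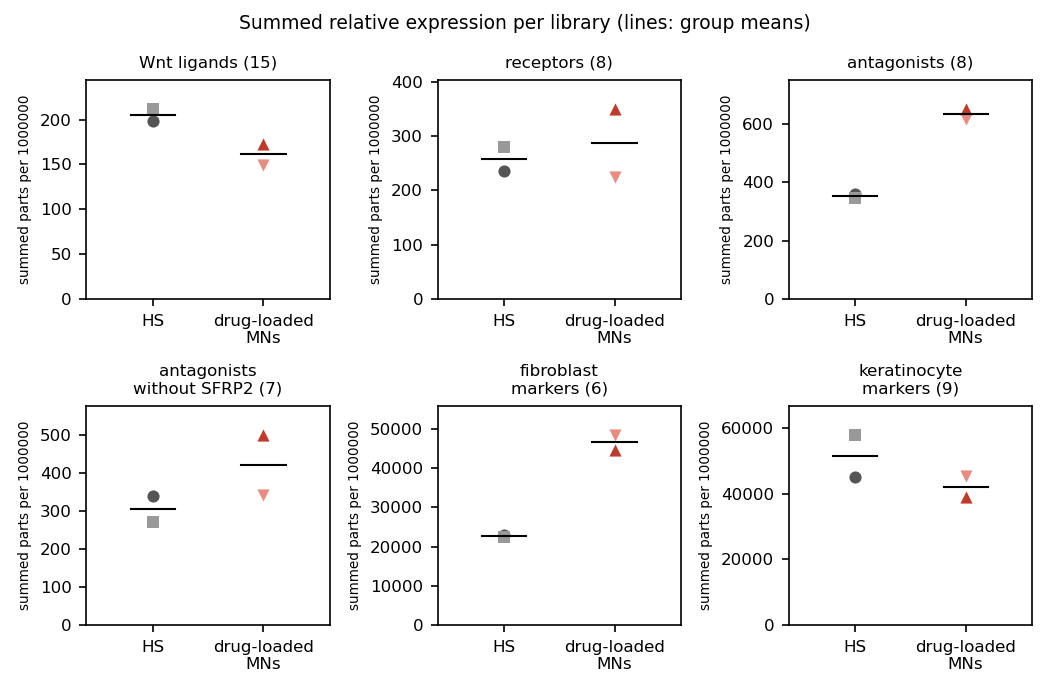
Summed relative expression per library, in parts per 1000000, for ligands, receptors, antagonists with and without SFRP2, and fibroblast and keratinocyte marker genes, with lines at the group means and axes from 0. Ligands were lower (198 and 212 against 173 and 149) and antagonists higher (359 and 348 against 653 and 618) in drug-loaded MNs, and fibroblast markers were higher as well.

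Marker genes of several cell types differed between the groups, but none passed in limma after adjustment. The smallest adjusted p in limma was 0.257 among the fibroblast markers and 0.296 among the macrophage markers. Of all genes tested, 26.6% were higher in drug-loaded MNs without overlap. The 6 fibroblast markers measured (COL1A1, COL1A2, COL3A1, DCN, LUM and DPT) summed to between 22526 and 22996 units in HS and between 44682 and 48616 units in drug-loaded MNs, all 6 were higher without overlap, none was at 0, and their median log2 fold change was 1.12. The 9 basal and suprabasal keratinocyte markers summed to between 45082 and 58033 units in HS and between 39041 and 45277 units in drug-loaded MNs, with overlapping groups in every gene, and none was at 0. The 7 macrophage markers summed to 90.6 to 105 units in HS and 219 to 222 units in drug-loaded MNs, with all 7 higher without overlap. The 4 mural markers summed to 285 to 479 units in HS and 492 to 644 units in drug-loaded MNs. The 5 endothelial markers summed to 193 to 196 units against 148 to 200 units but went both ways: CDH5 (2.76 and 4.30 units in HS, against 6.42 and 8.58 units with drug-loaded MNs) and PECAM1 (19.5 and 29.0, then 29.4 and 41.6) were higher without overlap, and VWF (149 and 128, then 83.1 and 114), which makes up most of the sum, was lower. The sums overlapped for Schwann (92.4 to 431 against 158 to 296), hair follicle and appendage (624 to 967 against 417 to 759), melanocyte (109 to 240 against 125 to 240) and chondrocyte markers (98.2 to 396 against 151 to 234). The sums weigh the most abundant genes most, and the 5 Schwann markers had a median log2 fold change of 0.62 although their sum was not higher. Of the 7 hair follicle and appendage markers, 2 were higher and 5 lower, with a median log2 fold change of -0.28. KRT71 was listed at 0 in both HS libraries and had 31.6 and 0.574 units in drug-loaded MNs. KRT25 went the other way, with 26.5 and 42.1 units in HS and 28.8 and 2.84 units in drug-loaded MNs, and its groups overlapped. Mitochondrially encoded genes took 2.75% and 2.80% of the HS libraries and 4.37% and 4.58% of the drug-loaded MNs libraries. The part of these differences in the values of the members was not tested.

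To set the members beside the fibroblast content, the mean log2 level of the 6 fibroblast markers was subtracted from that of each member in each library, a step added after the values had been seen. This mean was 1.09 higher in drug-loaded MNs, so the step lowers the difference of every gene by the same 1.09. On this scale SFRP2 was the only tested member that was higher in drug-loaded MNs without overlap, as were 0.385% of all genes, at -5.98 and -4.35 for HS against -4.32 and -3.55 for drug-loaded MNs. The margin between HS replicate 2 and drug-loaded MNs replicate 1 was thin, and the difference between the group means was 1.23. DKK2 (-0.20), SFRP5 (-0.26) and FZD2 (-0.44) overlapped between the groups. In all, 8 tested members overlapped and 32 were lower without overlap, a direction that the subtraction itself favours. The share of all genes that were lower on this scale was not counted, so the 32 are not read as a result.

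Beside the 9 keratinocyte markers, whose mean log2 level was 0.14 lower in drug-loaded MNs, 3 members were lower without overlap, as were 2.8% of all genes. They were WNT11 (-0.85), WNT5B (-0.84) and FZD3 (-0.23). WNT6 differed by -0.49 on this scale, with overlapping groups. Another 17 tested members were higher without overlap and 21 overlapped. This subtraction raises the difference of every gene by the same 0.14. The share of all genes that were higher on this scale was not counted, so the 17 are not read as a result.

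**Figure D4:**
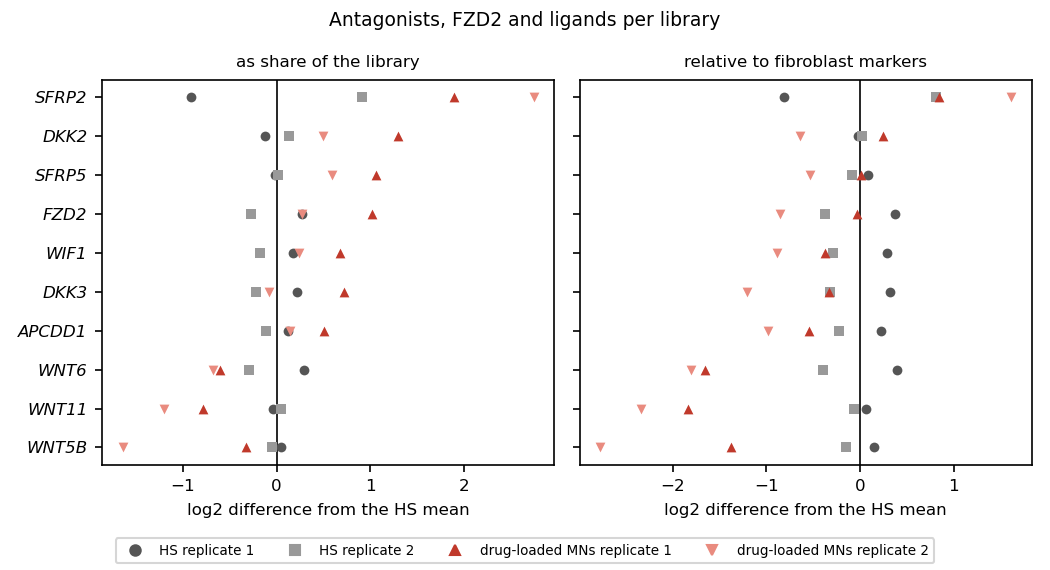
Each library's log2 difference from the HS mean for 7 members with higher and 3 with lower values in drug-loaded MNs, as a share of the library (left) and after subtracting the mean log2 level of the 6 fibroblast markers (right). On the right SFRP2 is the one gene with both treated libraries above both HS libraries, and the difference between group means is 1.09 lower than on the left for every gene.

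Further pathway genes outside the symbol rule came from a list of 68, of which 41 were in the table and 39 were tested. None passed in limma after adjustment. At an unadjusted p under 0.05, 4 were higher (10.3%, against 7.26% of all genes) and 0 lower (against 1.39%). Without overlap 14 were higher (35.9%, against 26.6%) and 1 was lower (2.56%, against 11.2%), and the median log2 fold change was 0.23. CTHRC1, a secreted protein of scar fibroblasts that binds WNT and its receptors, stood at 155 and 187 units in HS and at 419 and 388 units in drug-loaded MNs (log2 fold change 1.24, adjusted p 0.264 in limma). GPC3, a cell-surface proteoglycan, stood at 40.5 and 55.7 units in HS and at 96.8 and 101 units in drug-loaded MNs (log2 fold change 1.04, adjusted p 0.314 in limma). In both genes the treated libraries agreed closely and lay well above HS. For DACT1, which binds Dishevelled, the log2 fold change came to 0.88 (adjusted p 0.411 in limma), and for PYGO1, a partner of beta-catenin in the nucleus, to 0.78 (adjusted p 0.458 in limma). SERPINF1, a secreted factor that can bind LRP6, had 671 and 453 units in HS and 793 and 768 units in drug-loaded MNs. The kinase gene CSNK1A1 had 276 and 330 units in HS and 281 and 310 units in drug-loaded MNs, with overlapping groups.

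Of 20 genes listed as WNT targets, 11 were in the table and 10 were tested, of which 4 were higher and 6 lower, with a median log2 fold change of -0.24. Without overlap 1 was higher (10%, against 26.6% of all genes) and 3 were lower (30%, against 11.2%). MYC, a regulator of growth, stood at 389 and 477 units in HS and at 255 and 306 units in drug-loaded MNs (log2 fold change -0.62, adjusted p 0.485 in limma). FOSL1, a subunit of AP-1, stood at 71.8 and 55.4 units in HS and at 22.8 and 42.8 units in drug-loaded MNs (log2 fold change -0.99, adjusted p 0.431 in limma). Both were lower in each treated library than in either HS library. They were the 2 targets that were lower at an unadjusted p under 0.05 in limma (20%, against 1.39% of all genes). At that p 0 targets were higher (against 7.26%). TNFRSF19, a receptor of the TNF receptor family, was the target that was higher without overlap, at 14.9 and 19.6 units in HS and 29.7 and 21.7 units in drug-loaded MNs (log2 fold change 0.54, adjusted p 0.696 in limma). CD44, a hyaluronan receptor, was lower without overlap by little (log2 fold change -0.20, adjusted p 0.870 in limma). JUN, a stress-responsive subunit of AP-1, had 4251 and 6615 units in HS and 3290 and 4495 units in drug-loaded MNs, with overlap. Leaving out HS replicate 2 brought the median of the targets to -0.028, and leaving out drug-loaded MNs replicate 2 to -0.043. Many other signals act on these genes, and what moved them was not tested.

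Over the 41 tested members the median factor between the HS libraries was 1.31 and that between the drug-loaded MNs libraries 1.36, and the median factor between the group means was 1.24. In 15 members the HS libraries, and in 16 the drug-loaded MNs libraries, differed by a factor over 1.5. Of the 30 members given with values per library and a log2 fold change, 18 kept their direction in every alternative processing that could be run and 12 changed sign in at least 1. The 18 included SFRP2 (1.40 to 3.23), DKK2 (0.49 to 1.30), SFRP5 (0.35 to 1.23), WIF1 (0.24 to 0.68), WNT11 (-1.20 to -0.78), WNT5B (-1.64 to -0.33) and WNT6 (-0.93 to -0.35). In each of these named members the groups did not overlap, so leaving out 1 library could not change their sign. The alternatives that change only the filter, the variance prior or the replicate block leave the log2 fold change itself unaltered. A kept direction was therefore largely fixed in advance for these members. The 12 included TCF7L2, LGR4, WNT4, CTNNB1, AXIN2, DKK1, DKK3, FZD1 and FZD6.

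**Figure D5:**
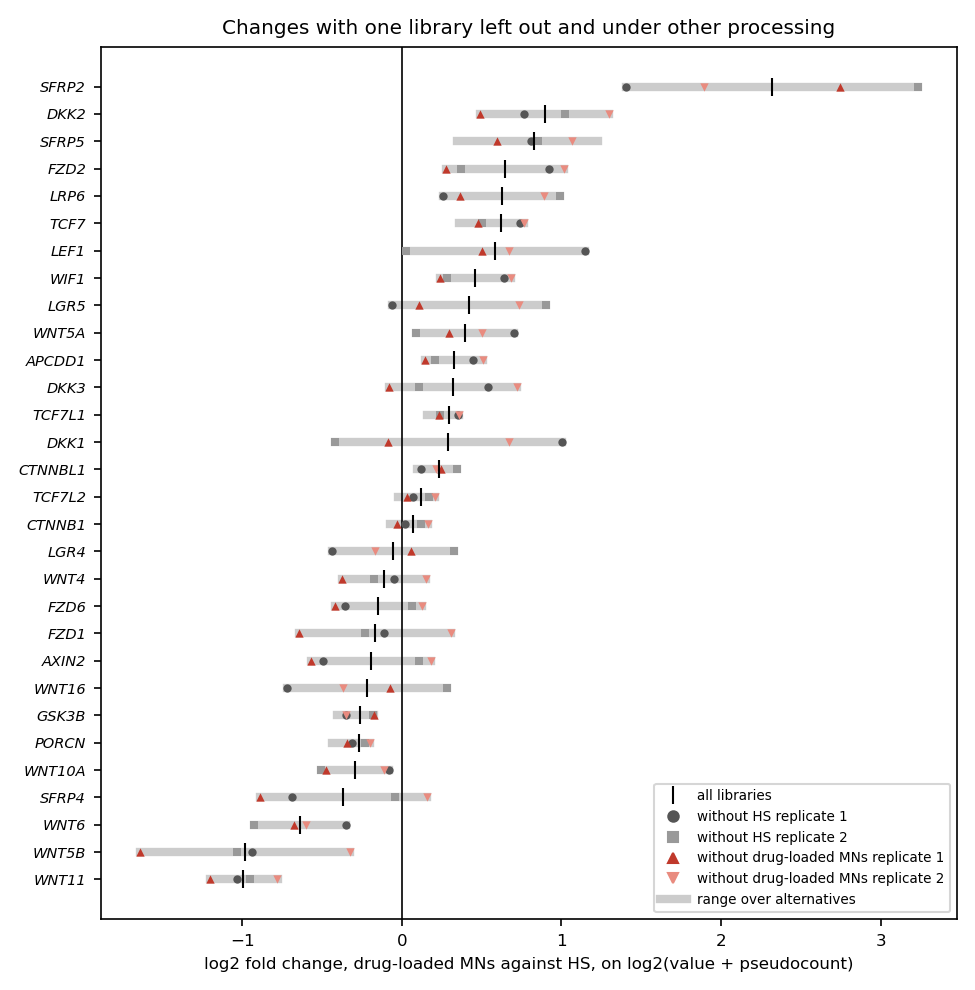
Log2 fold changes of 30 members with all libraries (black ticks), with 1 library left out (symbols) and over all alternatives (grey bars). SFRP2 stays between 1.40 and 3.23 and WNT11 between -1.20 and -0.78, while the bars of genes such as AXIN2 and CTNNB1 cross 0.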

How the data were processed

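The authors made single-cell libraries, and their methods name Cell Ranger for UMI counting, a correction for technical differences between samples, and Seurat. The submitters' processing notes list Cell Ranger 2.1.1 and the mouse build mm10, without a role for either, while the deposited identifiers are those of rabbit genes, so the build of the table is not given in the sources used here. The deposited table is named for FPKM, but each column summed to 10000. How cells were combined and how doublets were treated are not given in the sources used here. No length correction was visible, so levels of different genes may not be comparable. The choice of the highest genes, the sums and their ratio do set such levels side by side and share this limit. Only 18.5% to 21.7% of low values lay within 0.1 of whole steps, so reads were not recovered and no count model was used.

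Values were rescaled to 1000000 per library, the mean over libraries had to reach 1 unit, and log2(value + 1) was fitted with limma 3.58.1 (lmFit, eBayes with trend, R 4.3.3) without covariates, as planned for FPKM. P-values were two-sided, with Benjamini-Hochberg adjustment over all genes. With 2 against 2, exact permutation could give no p below 0.333 and was not used. The fit was tested on simulated data. Members and lists were chosen with earlier results of these data known. Values per library are given for members past the adjusted threshold, with an unadjusted p under 0.05, or free of overlap with an absolute log2 fold change over 0.5, for the 10 highest members and for the highest of each role (20 tested members). A further 10 tested members, and 5 untested ligands, were named after their values were seen, and the remaining members appear by ranges or a log2 fold change. Of the further pathway genes and the targets, those with an unadjusted p under 0.05 and the 3 highest were named, and WLS, TNFRSF19 and single marker genes were added after their values were seen. Symbols of 49 of the 50 members matched 1 gene of RefSeq assembly mOryCun1.1, used for neighbours only. No sequences were used here.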

Additional observations from a re-analysis of the deposited data

How the results depend on the processing

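No limit set by depth could be given, as the values hold no depth, and 2 libraries per group limited the precision. The edgeR test on reads was not run, as reads could not be recovered. Fits with 1 library left out or with a replicate block have 1 residual degree of freedom, and a lone library is then assumed to vary like the other group.

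Of all genes, 4 passed the threshold. With quantile normalization, median ratio scaling, a pseudocount of 5, no filter or a total without abundant genes 0 passed, with eBayes without trend 1 passed, and with the replicate block 241. With 1 library left out the count ran from 0 (HS replicate 1) over 3 (HS replicate 2) and 48 (drug-loaded MNs replicate 1) to 75 (drug-loaded MNs replicate 2). The cause was not tested. The median of all genes, 0.12 as reported, was -0.011 after median ratio scaling. Among genes at an unadjusted p under 0.05, 83.9% were higher as reported, 64.1% after that scaling and 59.0% after quantile normalization. The number of members past the threshold (0) was 1 with the replicate block, and this was SFRP2 (limma adjusted p 4.2e-09, with prior degrees of freedom of 59.2). It ranged from 0 to 1 with 1 library left out, and over the other alternatives the adjusted p of SFRP2 ran from 0.279 to 0.556. The block changed no other call of a named member. The replicate numbers come from the labels alone, the deviations of same-numbered libraries correlated at 0.22 across genes, and 2 pairs cannot show a pairing.

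Members at an unadjusted p under 0.05 (5) ranged from 3 (drug-loaded MNs replicate 1) to 6 (HS replicate 2) with 1 library left out and from 4 to 7 otherwise. WNT6 joined them with median ratio scaling and with quantiles, SFRP5 left them with quantiles, and SFRP2 left them with the robust prior. WNT5B left them without trend, where TCF7 joined, and without the filter, where RSPO4 and WNT1 joined. FZD2 and LRP6 joined with the block. The median of the members (0.14) was 0.0030 with median ratio scaling, -0.029 with quantile normalization, and ranged from 0.017 to 0.20 with 1 library left out. The median of the further pathway genes (0.23) ranged from 0.086 to 0.30 with 1 library left out. That of the targets (-0.24) was -0.38 under median ratio scaling and ranged from -0.24 to -0.028. The antagonist median lay between 0.19 and 0.70 and the ligand median between -0.39 and -0.15 over the 14 alternatives.

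With 1 library left out, log2 fold changes that turned sign ranged from -0.44 to 0.33 for LGR4, -0.078 to 0.72 for DKK3, -0.72 to 0.28 for WNT16, -0.42 to 0.13 for FZD6, -0.64 to 0.31 for FZD1, -0.030 to 0.17 for CTNNB1, -0.38 to 0.15 for WNT4, -0.42 to 1.001 for DKK1, -0.89 to 0.16 for SFRP4, -0.57 to 0.18 for AXIN2 and -0.060 to 0.91 for LGR5. Under median ratio scaling TCF7L2 was -0.022 and CTNNB1 -0.075. SFRP5, DKK1 and SFRP4 could not be tested with a minimum mean of 5.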
